A study of Rattus norvegicus with 8 samples.

Results

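The genes of histamine synthesis (Hdc), histamine breakdown (Hnmt) and the histamine receptors Hrh1 and Hrh2 were described in peritoneal macrophages of rats treated with carbon nanotubes. The members are the 4 rows of the count table that carry these symbols, out of 23487 genes in all. The RNA was taken from macrophages sorted by flow cytometry from the peritoneal lavage of female Wistar rats, 8 weeks old, 15 days after an intraperitoneal injection of particles. In 4 rats (numbered 3, 5, 10 and 11) the particle was the needle-like, mesotheliomagenic MWCNT-XNRI-7 (CNT-7), and in 4 rats (1, 2, 12 and 13) it was the tangled, non-mesotheliomagenic CNT-T. Every rat received a nanotube in buffer with albumin, and no untreated rat is among the 8, so each difference is one between both particles and not one from a resting cavity. The members were picked by symbol, but the group was proposed with the comparison of both particles known and was selected on the level and fold change of Hdc, which was far higher after CNT-7. Their own differences are therefore given as a description, without p-values, and the number of members under the study's threshold is printed only beside the share of all genes.

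Histamine is made in a single step, the decarboxylation of the amino acid histidine by histidine decarboxylase, the product of Hdc. Mast cells and basophils store it in granules, whereas macrophages and other myeloid cells that express Hdc release it as it is made. It is inactivated inside cells by the methyltransferase encoded by Hnmt, with further oxidation by monoamine oxidases and aldehyde dehydrogenases, or outside cells by the diamine oxidase encoded by Aoc1. Its receptors are G protein-coupled, with Hrh1 acting through Gq and phospholipase C and Hrh2 through Gs and cyclic AMP.

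The sequences before the starts of Hdc and Hrh1 are shown because these were the members with measurable levels. They are the 250 bases before the annotated start in RefSeq (GRCr8, chr3:134318705-134318954 on the minus strand for Hdc and chr4:149120261-149120510 on the plus strand for Hrh1), written 5′ to 3′. The counts were made against transcripts of another assembly, and no coordinate here comes from them. Capitals mark GGGCGG, the GC box of the Sp1 family, searched on both strands.
Hdc: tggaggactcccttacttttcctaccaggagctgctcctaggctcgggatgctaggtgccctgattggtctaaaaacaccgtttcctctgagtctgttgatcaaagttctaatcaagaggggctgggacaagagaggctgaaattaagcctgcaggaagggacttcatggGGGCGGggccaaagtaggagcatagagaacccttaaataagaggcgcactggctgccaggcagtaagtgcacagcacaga
Hrh1: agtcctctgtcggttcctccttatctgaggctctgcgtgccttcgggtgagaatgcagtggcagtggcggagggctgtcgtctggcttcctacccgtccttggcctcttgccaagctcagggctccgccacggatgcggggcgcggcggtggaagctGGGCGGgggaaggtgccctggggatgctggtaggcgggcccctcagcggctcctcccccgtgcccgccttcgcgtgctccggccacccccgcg
Each window held 1 GC box, with its first base 80 bases before the start in Hdc and 93 bases before it in Hrh1. Of 33469 RefSeq promoter windows of the same length, 30.5% held at least 1. The Hdc window was 52.4% G and C and the Hrh1 window 70.4%, with a median of 51.2% over all windows. CACCC, a motif of the Klf family, had 0 matches in the Hdc window and 2 in that of Hrh1, and was present in 49.2% of all windows. AGATAA or TGATAA, a motif of Gata factors, had 0 matches in Hdc and 1 in Hrh1 and was present in 16.9%. A match is a run of letters and not a bound site. The promoter table held 3 of the 4 members, with no entry for Hrh2.

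The libraries held between 27195157 and 33732981 estimated counts, so that 3 counts corresponded to between 0.0887 and 0.109 CPM (counts scaled to a TMM-adjusted total of 1000000) and this is the smallest level taken as measurable. All 10 macrophage markers examined were detected in the sorted cells. Their sum ranged from 17905 to 24413 CPM in CNT-7 rats and from 26144 to 37610 CPM in CNT-T rats, with Lyz2 the most abundant, and with edgeR's test 1 of the 10 rose (Cd14) and 5 fell after CNT-7 (Cd68, Csf1r, Adgre1, Fcgr1a and C1qb). In such bulk samples a higher share of cells that express a gene and more RNA per cell cannot be told apart. Of the 4 members, 2 (Hdc and Hrh1) passed the filter on low counts and were fitted. Both of these were under the adjusted p-value of 0.10 that the study used, and both were higher after CNT-7 without overlap between the groups. Among all 12124 genes fitted, 13.9% were under this threshold and higher after CNT-7, 14% were under it and lower, 27.9% in either direction, and 12.3% were higher after CNT-7 without overlap. Nothing is read from the members' count, as the members were chosen with this comparison known.

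Hdc (ENSRNOG00000010262) was present in every CNT-7 rat and barely measurable after CNT-T. After CNT-7 it had 21.4 CPM in rat 3, 33.9 in rat 5, 91.2 in rat 10 and 33.6 in rat 11, from 650, 1012, 2525 and 929 counts. After CNT-T it had 0.293 CPM in rat 1, 0.0591 in rat 2, 0.132 in rat 12 and 0.0716 in rat 13, from 9, 2, 4 and 2 counts. The CNT-T rats 2 and 13 were thus below the level of 3 counts, and the lowest CNT-7 rat was 72.8-fold above the highest CNT-T rat. The means were 45.0 ± 31.3 CPM (SD, n = 4) and 0.139 ± 0.108 CPM (SD, n = 4). On pooled counts, 5116 after CNT-7 against 17 after CNT-T, the ratio of the levels was 319.6, with an exact 95% interval from 199 to 549 that covers counting error alone. The fitted log2 fold change was 8.30 (standard error, SE, 0.66). CNT-7 rat 10 stood above the other CNT-7 rats, which had a mean of 29.6 ± 7.17 CPM (SD) without it. The fitted value was 7.70 without this rat and 8.95 without CNT-T rat 1, the limits over the 8 fits that each left out a rat.

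**Figure D1:**
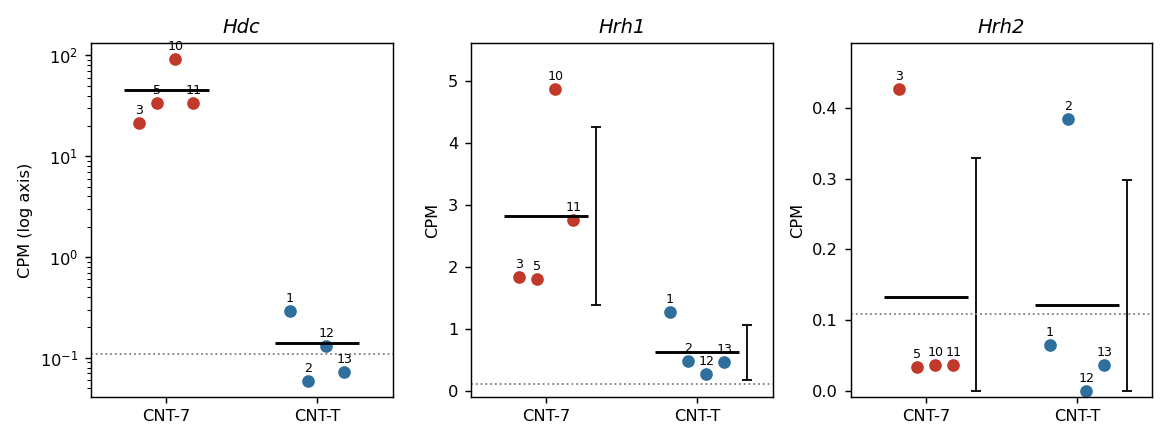
Levels of Hdc (log axis), Hrh1 and Hrh2 (linear axes) in CPM in each rat, with rat numbers beside the points, the mean of 4 rats as a black line, the SD as a bar for Hrh1 and Hrh2 (cut at 0) and the highest level of 3 counts as a dotted line. The CNT-7 rats lie between 21.4 and 91.2 CPM for Hdc and all CNT-T rats below 0.30 CPM, while Hrh2 exceeds the dotted line in 1 rat of each group.

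Hnmt (ENSRNOG00000005223), the methyltransferase of histamine breakdown, was listed at 0 counts in all 8 rats. A count of 0 allows up to 3 counts, so that a level of up to 0.109 CPM could have been missed in any rat. Transcripts that the quantification did not assign to this row would not be seen either, and its level could not be compared between the particles.

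Hrh1 (ENSRNOG00000007420), the Gq-coupled receptor, was low in all rats and higher after CNT-7. It had 1.84 CPM in rat 3, 1.81 in rat 5, 4.87 in rat 10 and 2.75 in rat 11 after CNT-7, and 1.27 in rat 1, 0.473 in rat 2, 0.264 in rat 12 and 0.465 in rat 13 after CNT-T. The groups did not overlap, but the lowest CNT-7 rat was only 1.42-fold above the highest CNT-T rat. The means were 2.82 ± 1.44 CPM (SD, n = 4) and 0.618 ± 0.446 CPM (SD, n = 4), from 321 and 76 counts in all. The fitted log2 fold change was 2.18 (SE 0.50), and it lay between 1.78, without CNT-7 rat 10, and 2.80, without CNT-T rat 1. The same rat was highest in each group for Hrh1 and for Hdc, namely rat 10 after CNT-7 and rat 1 after CNT-T. CNT-7 rat 3 was the lowest for Hdc, while CNT-7 rats 3 and 5 were nearly equal for Hrh1, with 56 and 54 counts. Whether the order of the other rats was shared is therefore not read from these levels. The total of CNT-7 rat 10 was 28335965 counts, within the range of the other rats.

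Hrh2 (ENSRNOG00000018260), the Gs-coupled receptor, was at or near the limit of detection and did not pass the filter. It had 13, 1, 1 and 1 counts in CNT-7 rats 3, 5, 10 and 11 and 2, 13, 0 and 1 counts in CNT-T rats 1, 2, 12 and 13. The levels of CNT-7 rat 3 (0.427 CPM) and CNT-T rat 2 (0.384 CPM) were above the level of 3 counts, and the others were not. Each group held 16 counts, and the ratio of CNT-7 over CNT-T was 1.06 with an exact 95% interval from 0.497 to 2.27 for counting error. A difference was not detectable at this depth. Eosinophil markers, which are not among the members, summed to 9.33 CPM in CNT-7 rat 3 and to 0.118 CPM in CNT-T rat 2, and their part in Hrh2 was not tested.

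The remaining genes of the histamine pathway were examined from a list of 16. Of these, 4 (Hrh4, Aldh1b1, Slc22a2 and Slc22a3) were at 0 counts in all rats and 6 passed the filter. Compared with CNT-T, 3 of the 6 rose after CNT-7, 1 fell and 2 did not pass the threshold. The shares over all genes fitted were 13.9% higher and 14% lower. Their median log2 fold change was 0.17, against 0.0083 for all genes. The receptor Hrh3, at most 17 counts in any rat, and the diamine oxidase Aoc1, at most 3, were too low to be fitted. So were the vesicular monoamine transporters Slc18a1, with at most 2 counts, and Slc18a2, which loads histamine into granules, with at most 1. The uptake transporter Slc29a4, with at most 2, was also too low.

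The oxidases that act after the first step of breakdown were expressed after both particles. Maob, which oxidizes methylated histamine, had 8.64, 10.2, 12.7 and 9.12 CPM in CNT-7 rats 3, 5, 10 and 11 and 4.89, 3.78, 3.66 and 3.58 CPM in CNT-T rats 1, 2, 12 and 13. No CNT-T rat reached the lowest CNT-7 rat, and the log2 fold change was 1.35 (SE 0.17, edgeR's adjusted p = 0.00081). This gene, like Hdc and Hrh1, was highest in CNT-7 rat 10 and in CNT-T rat 1. Maoa, the paralogous oxidase, had 56.9 ± 5.77 CPM in CNT-7 rats against 48.4 ± 3.04 CPM in CNT-T rats, with overlap (log2 fold change 0.23, adjusted p = 0.092). Its call was lost when any rat other than CNT-7 rat 5 was left out, with edgeR's adjusted p-values between 0.12 and 0.19. Among the aldehyde dehydrogenases, Aldh3a2 rose by 0.26 on the log2 scale (adjusted p = 0.049) and Aldh9a1 fell by 0.23 (adjusted p = 0.033). The call of Aldh3a2 was lost without CNT-7 rat 5, CNT-T rat 2 or CNT-T rat 12 (adjusted p = 0.12, 0.12 and 0.11). Aldh2, the mitochondrial enzyme, had 446 ± 54.8 CPM in CNT-7 rats against 415 ± 43.0 CPM in CNT-T rats (adjusted p = 0.55). Aldh7a1 had a log2 fold change of -0.48 (adjusted p = 0.27), which became -0.86 without CNT-7 rat 11 (adjusted p = 0.0075).

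Genes that supply the substrate and the cofactors of Hdc and Hnmt moved in both directions. Of 21 symbols listed, 20 were in the table (the other is a newer name of Hars), 3 were at 0 in all rats (Uroc1, Ftcd and Slc38a5) and 15 passed the filter. Of the 15, 4 rose, 4 fell and 7 did not pass the threshold after CNT-7, with a median log2 fold change of 0.13. Among all genes fitted, 13.9% rose and 14% fell. Among the genes of histidine handling, Amdhd1, an enzyme of the histidine breakdown pathway, had 1.01 ± 0.232 CPM in CNT-7 rats and 0.198 ± 0.144 CPM in CNT-T rats (log2 fold change 2.30, SE 0.49). Amdhd1 had 23 to 35 counts in CNT-7 rats and 1 to 13 in CNT-T rats, with CNT-T rat 1 below the level of 3 counts. It was not fitted when 10 counts were required in every rat, and it passed the filter through the CNT-7 rats. Its call is therefore a description and not a test. Hal, which starts the histidine breakdown pathway, had at most 5 counts. Cndp1, a dipeptidase that releases histidine from carnosine, fell from 49.7 ± 3.71 to 25.7 ± 4.62 CPM (log2 fold change -0.95, SE 0.13, adjusted p = 0.0011). The related and more abundant Cndp2 had 552 ± 45.2 CPM in CNT-7 rats against 581 ± 57.4 CPM in CNT-T rats (log2 fold change -0.075, adjusted p = 0.63). Slc15a4, the lysosomal transporter of histidine and small peptides, rose by 0.41 on the log2 scale (adjusted p = 0.035), and Slc7a5, a large neutral amino acid transporter, fell by 0.32 (adjusted p = 0.032). Slc3a2, listed beside Slc7a5, had a log2 fold change of 0.16 (adjusted p = 0.32). Hdc requires pyridoxal phosphate. Pdxk, the kinase that forms it, fell by 0.88 on the log2 scale (adjusted p = 0.0028), and the phosphatase Pdxp rose by 0.65 (adjusted p = 0.085). The call of Pdxp was lost without CNT-7 rat 3, 5 or 10 or CNT-T rat 2, 12 or 13 (adjusted p = 0.16 to 0.19) and without the filter on low counts (0.13). Hnmt uses S-adenosylmethionine. Mat2b, a subunit of the synthetase of this methyl donor, rose by 0.34 on the log2 scale (adjusted p = 0.020), and Ahcy, which removes the product left by methyl transfer, fell by 0.51 (adjusted p = 0.036). Mat2a, another subunit of this synthetase, had 346 ± 38.9 CPM in CNT-7 rats against 315 ± 28.9 CPM in CNT-T rats (log2 fold change 0.13, adjusted p = 0.40).

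Of 5 decarboxylases related to Hdc, 4 were in the table. Ddc and Gad1 were at 0 counts in all rats and Gad2 had at most 6 counts. Csad, a cysteine sulfinate decarboxylase, had 8.38 ± 1.57 CPM in CNT-7 rats against 9.76 ± 1.35 CPM in CNT-T rats (log2 fold change -0.22, adjusted p = 0.40), and was the 1 gene fitted. Whether reads were shared between these genes and Hdc was not tested.

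The genes that act downstream of the receptors were largely expressed. Of 31 symbols listed, 30 were in the table (the other is an older name of Grk2), 4 were at 0 counts (Gna14, Adcy1, Adcy2 and Adcy8) and 23 passed the filter. Of these, 3 rose, 7 fell and 13 did not pass the threshold after CNT-7, with a median log2 fold change of -0.085. For all genes fitted the shares were 13.9% higher and 14% lower. Of the G protein subunits, Gnaq had a log2 fold change of -0.24 (adjusted p = 0.15), Gna11 of -0.15 (0.46) and Gnas of 0.056 (0.73). For Gnas the row with more counts of 2 with this symbol was used. Gnai3, an inhibitory subunit, rose by 0.34 on the log2 scale (adjusted p = 0.042), a call lost without CNT-7 rat 5 or 10 or CNT-T rat 12 (0.10 to 0.11). On the Gq side, the phospholipases Plcb4 and Plcb2 fell, Plcb4 from 37.9 ± 7.63 to 16.2 ± 3.56 CPM (log2 fold change -1.22, adjusted p = 0.0022) and Plcb2 from 151 ± 32.8 to 91.7 ± 11.1 CPM (-0.72, adjusted p = 0.010). The calcium channel gene Itpr1 fell by 0.30 (adjusted p = 0.056), a call lost without CNT-7 rat 3, 5 or 10 or CNT-T rat 2 (0.10 to 0.14). On the cyclic AMP side, the adenylate cyclases Adcy6 and Adcy7 rose by 0.73 and 0.26 on the log2 scale (adjusted p = 0.015 and 0.069), Adcy9 fell by 0.42 (adjusted p = 0.018), and the protein kinase A subunit Prkacb fell by 0.75 (adjusted p = 0.0012). The call of Adcy7 was lost without CNT-7 rat 3 or CNT-T rat 2, 12 or 13 (adjusted p = 0.12 to 0.18). Of the genes that switch receptors off, Arrb2, a beta-arrestin, fell from 714 ± 119 to 390.2 ± 102 CPM (log2 fold change -0.87, adjusted p = 0.011) and the receptor kinase Grk6 fell by 0.29 (adjusted p = 0.039). Plcb1 and Plcb3 had log2 fold changes of 0.65 and 0.24 and did not pass the threshold (edgeR's adjusted p = 0.19 for each). Nor did Prkaca, Arrb1, Grk2 and Grk5. The genes of this list serve many receptors besides those of histamine.

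The last list held 13 genes of transcription factors that act on Hdc in other cells and of cytokine receptors whose ligands induce histamine production. Of these, 11 passed the filter, 5 rose after CNT-7 and 6 did not pass the threshold, with a median log2 fold change of 0.084. At the threshold of edgeR's test 0 genes fell, and 0 genes with a negative log2 fold change had an unadjusted p-value under 0.05, with 0 falling by DESeq2 as well. Without CNT-T rat 13, however, 1 gene of the list fell. Over all genes fitted, 13.9% were under the threshold and higher after CNT-7. The list mixes activators, a repressor and receptor subunits, and was chosen with earlier results of these data known. Nothing about Hdc is read from the direction of its count. Csf2rb, the signalling subunit shared by the receptors of GM-CSF and interleukin-3, had 1330.3, 1879, 2191 and 1335 CPM in CNT-7 rats 3, 5, 10 and 11 and 1001, 888, 676 and 728 CPM in CNT-T rats 1, 2, 12 and 13. The groups did not overlap, and CNT-7 rat 10 was again the highest (log2 fold change 1.03, SE 0.19, adjusted p = 0.0050). The partner subunits did not pass the threshold, with log2 fold changes of 0.084 for Csf2ra (adjusted p = 0.75) and -0.26 for Il3ra (adjusted p = 0.21). The interleukin-18 receptor gene Il18r1 rose by 0.79 on the log2 scale (adjusted p = 0.0043) and the interleukin-33 receptor gene Il1rl1 by 0.32 (adjusted p = 0.064), the latter call being lost without CNT-7 rat 3, 5 or 10 or CNT-T rat 1, 2 or 13 (0.10 to 0.16). Of the factors, Mitf rose by 0.58 on the log2 scale (adjusted p = 0.0042) and Klf4, known as a repressor of Hdc, by 0.49 (adjusted p = 0.0067). The highest CNT-7 rat was not shared by the rising genes of this list. It was rat 10 for Csf2rb and Mitf, rat 5 for Il18r1 and Klf4, and rat 3 for Il1rl1. Sp1, which binds GC boxes, had a log2 fold change of -0.067 (adjusted p = 0.60) and Cebpb of -0.034 (adjusted p = 0.93). Gata2, which drives Hdc in mast cells, had at most 1 count in any rat.

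**Figure D2:**
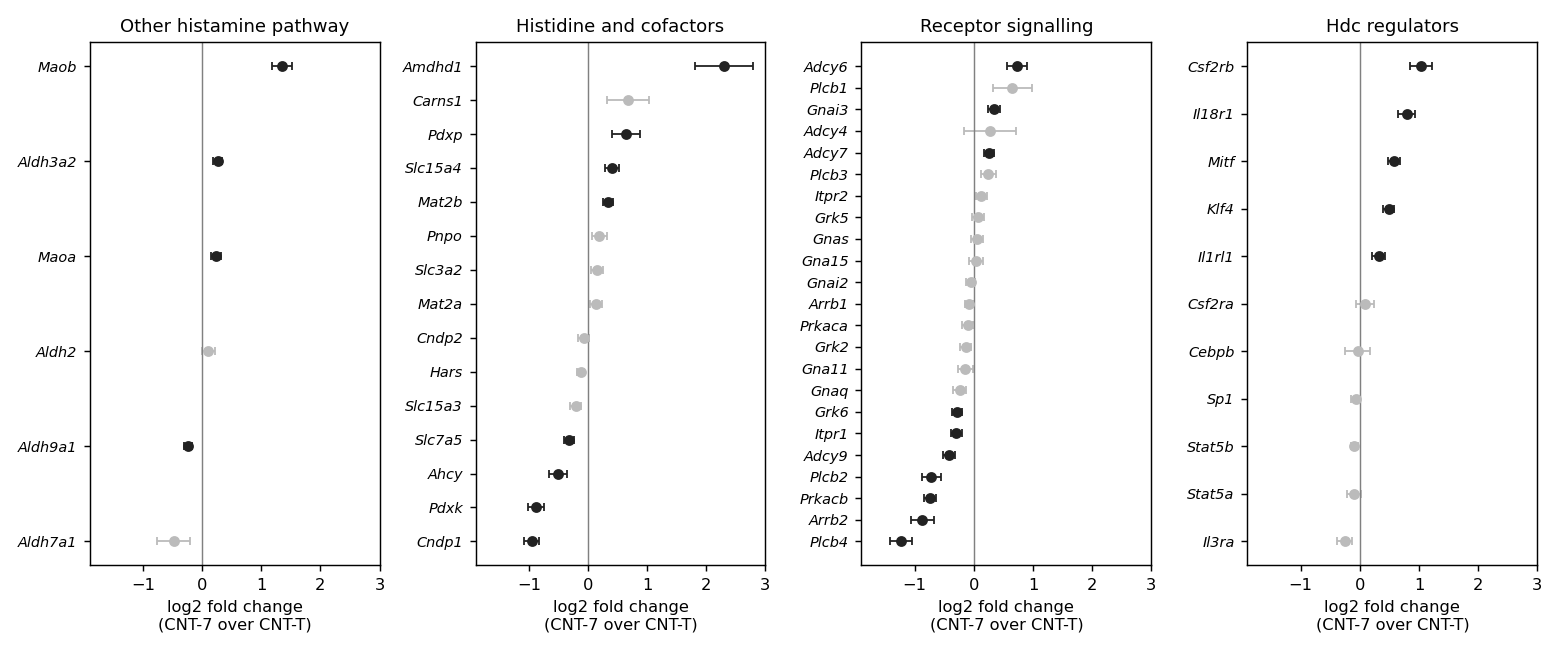
Log2 fold changes of CNT-7 over CNT-T for the genes of 4 lists that passed the filter, with standard errors as bars, black for an adjusted p-value under 0.10 and grey for the others. Maob (1.35), Amdhd1 (2.30) and Csf2rb (1.03) lie farthest to the right of their panels, and Plcb4 (-1.22) farthest to the left of the receptor signalling genes.

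Mast cells, basophils and neutrophils also express Hdc, and markers of other cells were therefore summed in each rat. By flow cytometry the study gated macrophages as CD11b/c-high, His48-dim cells, apart from neutrophils and monocytes, and the gate of the sort for RNA is not given in the sources used here. The study did assess the purity of the sorted macrophages by Diff-Quick staining. It gives a lower bound that is high but short of complete purity, so a minority of other cells may be present. Of 11 mast cell markers, 9 were in the table and Mcpt4 was at 0 in all rats. Their sum was 0.657, 1.57, 1.12 and 1.92 CPM in CNT-7 rats 3, 5, 10 and 11 and 1.08, 0.0296, 2.51 and 0.394 CPM in CNT-T rats 1, 2, 12 and 13. The groups overlapped, and the highest sum was that of CNT-T rat 12. Cpa3 was the 1 mast cell gene fitted (log2 fold change 0.36, adjusted p = 0.81). Of 5 basophil markers 4 were in the table, with Prss34 at 0 and sums of at most 0.131 CPM in CNT-7 rats against 0.165 CPM in CNT-T rats. Neutrophil markers summed to 33.9 to 63.0 CPM in CNT-7 rats and to 26.2 to 68.5 CPM in CNT-T rats, with Mpo and Np4 at 0 in all rats and Csf3r, which macrophages also express, the most abundant. Of the 5 neutrophil genes fitted, 1 fell (S100a8) and 0 rose, against 14% and 13.9% of all genes fitted.

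Of 5 dendritic cell markers, 3 were fitted. Of these, 2 were under the threshold and higher after CNT-7, against 13.9% of all genes fitted. Clec9a rose to 1.32 ± 0.628 CPM after CNT-7 from 0.390 ± 0.174 CPM after CNT-T (adjusted p = 0.026). Ccr7 had 1.50 ± 1.18 CPM after CNT-7, from 11 to 94 counts, and 0.102 ± 0.119 CPM after CNT-T, from 0 to 9 counts. Ccr7 passed the filter through the CNT-7 rats alone, so its call is a description and not a test. Zbtb46, the most abundant, had a log2 fold change of -0.22 (adjusted p = 0.65). The sum of the 5 markers was 5.61 to 11.6 CPM after CNT-7 and 4.37 to 8.38 CPM after CNT-T, with overlap. Singly, Clec9a, Ccr7 and Xcr1 (at most 6 counts) were higher after CNT-7 without overlap. Ccr7 was highest in CNT-7 rat 5, at 3.15 CPM. Eosinophil markers, with Epx and Prg3 at 0 in all rats, summed to 0.181 to 9.33 CPM after CNT-7 and 0.107 to 0.359 CPM after CNT-T, the high value being that of rat 3. Lymphocyte markers, 6 of 7 in the table, summed to 0.760 to 6.97 CPM after CNT-7, highest in rat 5, and 0.251 to 0.857 CPM after CNT-T. Of these, Cd3e was higher after CNT-7 without overlap (0.290 to 2.11 against 0.0358 to 0.231 CPM). Megakaryocyte and platelet markers, with Gp9 and Gp1ba at 0, summed to 0.578 to 1.04 and 0.456 to 1.29 CPM, and mesothelial markers, with Upk3b and Wt1 at 0, to at most 0.302 and 0.130 CPM. The part of any of these cells in the level of Hdc was not tested.

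**Figure D3:**
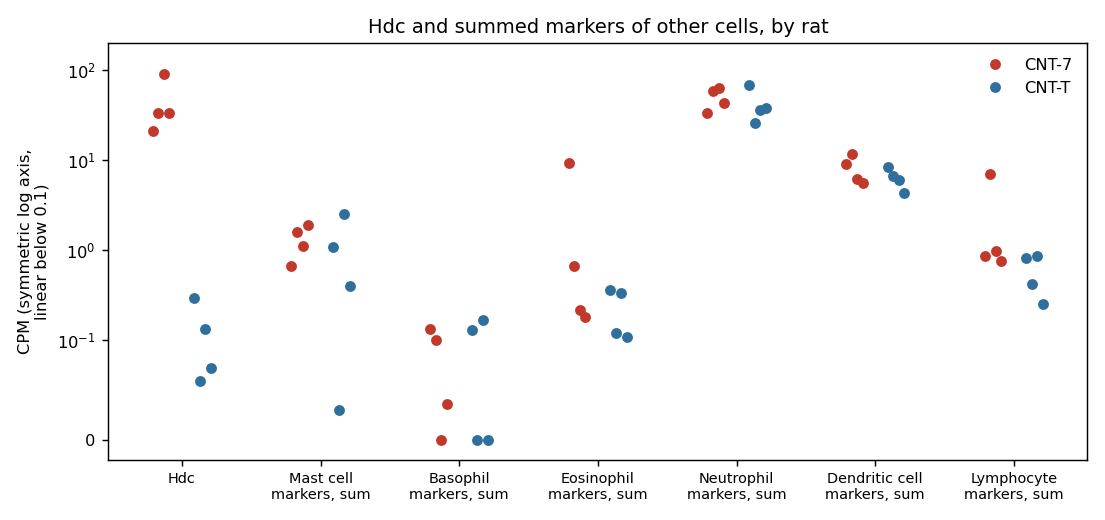
Level of Hdc and summed levels of marker lists of other cells in CPM in each of 8 rats, on a symmetric log axis that is linear below 0.1. Hdc separates the CNT-7 rats (21.4 to 91.2 CPM) from the CNT-T rats (0.0591 to 0.293 CPM). Each summed list overlaps between the particles. Within the lists, Ccr7, Clec9a, Xcr1 and Cd3e were higher and S100a8 lower after CNT-7 without overlap, which the sums do not show.

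The genes whose pattern over the 8 rats was nearest to that of Hdc were sought among 11104 other genes with a mean of at least 1 CPM. The measure was the root mean square difference between log2 CPM values centred on the mean of the 8 rats, in which the size of the difference between the particles weighs most, and it is given as a description. Nearest were Fbp1, encoding the gluconeogenic fructose-1,6-bisphosphatase (0.94 log2 units), and Rnase2, a secreted ribonuclease of a family of similar genes whose reads may be divided among them (0.94). Pla2g7, encoding the hydrolase of platelet-activating factor (1.07), Cst7, encoding the protease inhibitor cystatin F (1.41), and Sdc1, encoding syndecan-1 (1.42), followed. Fbp1 had 13.3 to 41.5 CPM after CNT-7 and at most 0.033 CPM after CNT-T, and Rnase2 had 33.3 to 84.4 CPM and at most 0.033 CPM. Pla2g7 had 183 to 452 CPM after CNT-7 and 3.22 to 10.7 CPM after CNT-T. Within the CNT-7 rats, Rnase2, Pla2g7 and Sdc1 were highest in rat 10, as Hdc was, while Fbp1 and Cst7 were highest in rat 3, where Hdc was lowest. With a prior count of 0.5 in place of 2, 3 of the 5 genes remained, and Apln and LOC103690354 took the places of Cst7 and Sdc1.

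**Figure D4:**
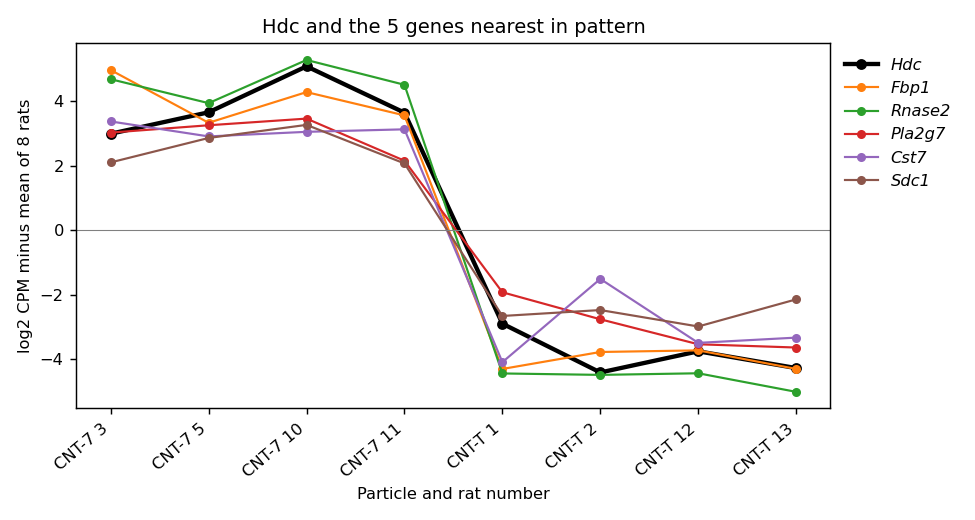
Log2 CPM relative to the mean of the 8 rats for Hdc (black) and the 5 genes nearest to it in pattern, by rat, with lines that only join the points of 1 gene. Hdc, Rnase2, Pla2g7 and Sdc1 peak in CNT-7 rat 10 and Fbp1 and Cst7 in CNT-7 rat 3, and all 6 genes are above 0 in the CNT-7 rats and below 0 in the CNT-T rats.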

How the data were processed

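RNA-seq libraries of sorted macrophages were used, 4 from rats given CNT-7 and 4 from rats given CNT-T, with groups and rat numbers taken from the sample titles. The authors quantified reads with Salmon (version not given in the sources used here) against Ensembl rat cDNA (Rnor_6.0), imported them with tximeta and deposited estimated counts per gene, as whole numbers and without normalization. All 8 columns were used and 0 were left out. Estimated counts divide reads between similar transcripts.

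edgeR 4.0.16 (R 4.3.3) was used for a quasi-likelihood test between the groups (TMM, filterByExpr at its defaults of 10 counts and a total of 15, Benjamini-Hochberg adjustment over 12124 genes, threshold 0.10). Standard errors are the log2 fold change over the square root of F. CPM uses TMM-scaled totals. The totals are 27195157 to 33732981 counts per rat. Reads carry no molecular identifiers, so intervals and floors cover counting error alone. Nothing in the labels names litters or cages. The code was tested on simulated counts.

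The members and lists were chosen with earlier results of these data known. The text names the members, list genes past the threshold, the genes of the further histamine pathway (1 is not reported here) and the 5 genes nearest to Hdc. Other genes in the text were named after their values were seen. Alternatives were DESeq2 1.42.0, upper-quartile normalization, other filters, a threshold of 0.05, the range of the rat numbers (up to 5 or above) as a term, each rat left out, a prior count of 0.5 and CPM on raw totals.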

Additional observations from a re-analysis of the deposited data

Results flagged for a closer look

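In 12 of 74 groups of 4 rats examined, where chance gives about 3.7, 1 rat lay far from the rest, as measured by Dixon's ratio (its distance to the nearest rat over the whole range). Hrh2 was highest in CNT-7 rat 3 (ratio 0.993) and in CNT-T rat 2 (ratio 0.830), with 13 counts in each. Maoa was lowest in CNT-7 rat 5 (ratio 0.868, 48.3 CPM against 59.1 to 60.7) and in CNT-T rat 1 (ratio 0.874, 43.8 CPM against 49.5 to 50.3), and Maob was highest in CNT-T rat 1 (ratio 0.845). Pdxk was lowest in CNT-7 rat 5 (ratio 0.856), Plcb4 lowest in CNT-T rat 2 (ratio 0.904, 26.5 CPM against 41.0 to 42.6) and Grk6 lowest in CNT-7 rat 10 (ratio 0.845). Adcy6 was highest in CNT-T rat 12 (ratio 0.905) and Adcy7 in CNT-7 rat 3 (ratio 0.833). Cst7 was highest in CNT-T rat 2 (ratio 0.861, 3.46 CPM against 0.522 to 0.931). For Rnase2, counts were 0 in CNT-T rat 13 and 1 in each other CNT-T rat (ratio 0.897), which is below the level of 3 counts and carries no order.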

How the results depend on the processing

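No paired analysis was possible because the rats of both groups share no number. The log2 fold changes of Hdc and Hrh1 moved by less than the spread between rats under every alternative that kept them, leaving out each rat included (Hdc 7.70 to 8.95, Hrh1 1.78 to 2.80), and neither gene had 10 counts in every rat. Hrh2 could be fitted only without the filter (log2 fold change 0.11, standard error 1.13). With each rat left out, the genes called over the whole table numbered 2578 to 3515. In the further histamine pathway 1 to 2 rose (1 without CNT-T rat 2 or 12) and 1 to 2 fell (2 without CNT-7 rat 11). Of the receptor signalling genes 1 to 4 rose (1 without CNT-T rat 12), and of the Hdc regulators 0 to 1 fell (1 without CNT-T rat 13). The genes nearest to Hdc kept 3 of 5 with a prior count of 0.5, and the cause was not tested.

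Of 29 named genes with 13 alternatives each at most, 21 kept their call in all. Aldh7a1 gained a call without CNT-7 rat 11, and Maoa, Aldh3a2, Pdxp, Il1rl1, Itpr1, Adcy7 and Gnai3 lost theirs without the rats named beside them. Maoa was also lost without the filter (adjusted p = 0.12). Depth limits Hrh2, Hnmt and the CNT-T level of Hdc, where 3 counts are the smallest level taken as measurable.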
